A study of Mus musculus with 6 samples.

Results

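The P2X receptors are the ATP-gated cation channels of the cell surface and of some internal membranes, and 7 genes, P2rx1 to P2rx7, encode their subunits in the mouse. All 7 were found by symbol among the 45703 genes of the count table, each in a single row, and the rule that chose them is the gene name. The samples were 6 cultures from dorsal root ganglia (DRG, the sensory ganglia beside the spinal cord) of wild-type C57BL/6 mice, described as adult and aged 4 to 6 weeks, with no transgene, deletion or treatment arm. Ganglia were dissociated with Liberase enzymes and grown for 7 days on poly-L-lysine in DMEM/F12 with 10% fetal calf serum, penicillin/streptomycin, and EGF and FGF at 10 ng/ml, and RNA of 2 dishes made up each sample. All samples formed 1 group, so the data allow comparisons between genes within a library and between cultures, and not between conditions. The series text calls the cultures biological replicates but the labels do not say which animals they came from, and p-values below measure only the spread between these samples.

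A P2X channel is a trimer that opens when extracellular ATP binds between its subunits and lets sodium, potassium and calcium pass. P2X3 is the subunit best known from sensory ganglia, where it forms channels alone or together with P2X2 on nociceptors, the neurons that report noxious stimuli. P2X7 is known from macrophages and from satellite glia, the cells that wrap sensory neuron bodies, and needs high ATP to open; P2X4 is found in many cell types, often in lysosomal membranes; P2X1 is the classical receptor of smooth muscle and platelets.

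The libraries held 20070639 to 22968642 counts. Levels are given as CPM, the gene's count scaled by its library total to counts-per-million, and CPM per kb divides that by the gene's combined exon length in kilobases. Marker lists gave signal for neurons (12 of 12 genes at 1 CPM or more in every library, summed 1120 to 2459 CPM), the glial lineage (6 of 6, 4162 to 6033 CPM), satellite glia (5 of 5, 1657 to 2655 CPM), fibroblasts (6 of 6, 3338 to 13970 CPM), mural and smooth muscle cells (6 of 7, 274 to 1543 CPM), macrophages (9 of 12, 22.0 to 220.3 CPM), endothelium (2 of 5, 8.01 to 113.8 CPM) and large-diameter sensory neurons (3 of 5, 201.4 to 353.3 CPM). No skeletal muscle gene of 4 passed this threshold, and their sum was 0.671 to 1.87 CPM. In the fibroblast sum, the collagen genes Col1a2, Col3a1 and Col1a1 averaged 2695, 1954 and 1781 CPM out of 6673. Dcn, Lum and Pdgfra averaged 172.4, 36.6 and 34.0 CPM. Whether the collagen counts came from fibroblasts alone was not tested. Most of the large-diameter neuron sum came from Ntrk2, with a mean of 253.8 CPM out of 305.2. Nefh (35.4 CPM) and Ntrk3 (15.6 CPM) also passed in that list. Its Runx3 averaged 0.293 CPM, and its Pvalb averaged 0.0394 CPM and never had more than 3 counts. In such mixed bulk samples, fewer cells of a type and less RNA per cell cannot be told apart.

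Of the 7 genes, P2rx3, P2rx4, P2rx5 and P2rx7 reached 1 CPM in all 6 libraries, P2rx1 and P2rx6 did so in 1 library each, and P2rx2 in none. Across the table, 30.4% of all genes and 55.8% of protein-coding genes passed the same threshold. By mean CPM, P2rx3 ranked 1686th and P2rx7 1734th among 21843 protein-coding genes, P2rx4 4603rd, P2rx5 12103rd, P2rx6 13182nd, P2rx1 13663rd and P2rx2 16398th. The plot of CPM by gene and library separates an upper set of 3 genes from a lower set of 4.

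**Figure D1:**
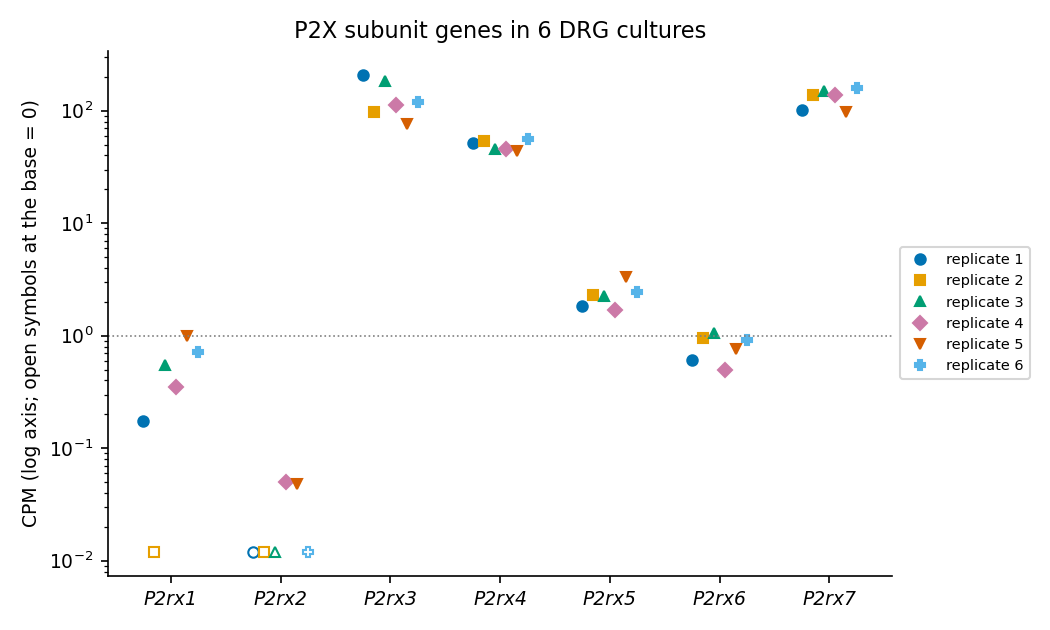
CPM (log axis) of the 7 P2X genes in each of the 6 cultures, 1 symbol per replicate; open symbols at the base are libraries with 0 counts and the dotted line is 1 CPM. P2rx3, P2rx4 and P2rx7 lie between 43.7 and 209 CPM, P2rx5 between 1.69 and 3.30 CPM, P2rx6 and P2rx1 at 1.06 CPM or less, and P2rx2 has 0 counts in 4 libraries.

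P2rx3 (gene 228139, GRCm38.p6, chromosome 2, 84996549 to 85037108, minus strand) encodes the nociceptor subunit. Its level was 209 CPM in replicate 1, 97.1 in replicate 2, 184 in replicate 3, 111.5 in replicate 4, 76.8 in replicate 5 and 119.8 in replicate 6. Replicates 1 and 3 were the highest and replicate 5 the lowest, a 2.73-fold range, with a coefficient of variation (CV, SD over mean) of 39.1%. Its counts ran from 1608 to 4810 per library and were whole in all 6. Of 1801 genes whose mean lay within 1.5-fold of it, 97.95% had a lower CV, and their median CV was 8.10%.

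P2rx2 (gene 231602, chromosome 5, 110339812 to 110343320, minus strand), the partner of P2X3 in heteromeric channels, was close to absent. It had 1 count in replicate 4, 1 in replicate 5 and 0 in replicates 1, 2, 3 and 6. Those 2 counts among 128512422 correspond to 0.0156 CPM, with an exact Poisson 95% interval of 0.00189 to 0.0562 CPM that covers counting error only. Over the 6 libraries together, P2rx3 had 2786 times the P2rx2 level per kb of exon (counting interval 771 to 23010). The ratio of raw counts was 8640 (2392 to 71350), and that per kb of the longest GENCODE coding transcript, a length chosen after seeing the data, was 9995 (2766 to 82540). This last ratio keeps any P2rx3 reads on deposited exon bases outside that transcript. P2rx2 transcripts were therefore at or below the limit of detection at this depth in every library, where a count of 0 allows up to 0.131 to 0.149 CPM, and no statement on its spread is possible.

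P2rx3 was set beside neuronal markers. Its level relative to the summed CPM of the 12 pan-neuronal genes was 10.3% in replicate 1, 7.18% in replicate 2, 7.48% in replicate 3, 6.61% in replicate 4, 6.86% in replicate 5 and 6.43% in replicate 6. Replicate 1 was high and the other libraries lay close together. The CV of this ratio was 19.3%, against 39.1% for P2rx3 itself and 27.4% for the pan-neuronal sum. The ratio of P2rx3 to the summed non-peptidergic nociceptor genes had a CV of 32.7%. Across the 6 libraries, Pearson's r between P2rx3 and the mean log2 level of the pan-neuronal list was 0.90, with an exact permutation p of 0.0208 (adjusted 0.128 over the 12 relations computed). Spearman's rho was 0.94, with an exact permutation p of 0.0167 (adjusted 0.10), so neither passed the correction. Dropping replicates 3 and 5, which lay farthest from the list's median, gave r = 0.79. With the fibroblast list, in a set of 40 relations run after seeing the data, P2rx3 had r = -0.83 and rho = -0.71 (exact permutation p = 0.0417 and 0.136, adjusted 0.315 and 0.605), and r = -0.25 without replicates 1 and 5.

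Genes that mark the non-peptidergic nociceptors, a class known for P2X3, were uneven. Mrgprd, a G protein-coupled receptor that defines many of these neurons, averaged 0.521 ± 0.411 CPM (SD, n = 6) and reached 1 CPM only in replicate 5, at 1.19 CPM, the library with the least P2rx3. Lpar3, a lysophosphatidic acid receptor, stayed between 0.239 and 0.936 CPM. Ret, the GDNF family signalling receptor, averaged 159 ± 45.3 CPM, Gfra2, the neurturin receptor, 98.6 ± 24.1 CPM, and Scn11a, a sodium channel of nociceptors, 33.4 ± 13.5 CPM. Over the list of 8, P2rx3 had r = -0.13 and rho = -0.029 (exact permutation p = 0.774 and 1.0, adjusted 0.885 and 1.0). Without replicates 2 and 3, r was -0.92, and with the log2 of the list's summed CPM in place of the mean, r over 6 libraries was 0.70, so the value rests on how the list is summarised.

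P2rx7 and P2rx4 lie next to each other on chromosome 5 and are transcribed in the same direction. P2rx7 (gene 18439, 122643927 to 122692336, plus strand) ends 15181 bases before P2rx4 (gene 18438, 122707518 to 122729739, plus strand) begins, and the 2 are each other's nearest protein-coding neighbours on that side in the table. The RefSeq promoter windows (GRCm38.p6) held entries for 4 of the 7 genes. The 250 bases before the transcript start in that table, which for P2rx4 and P2rx6 lies slightly inside the deposited gene span, are given for this expressed neighbouring pair and, as a contrast, for P2rx6, which was counted at under 1 CPM in 5 of 6 libraries. P2rx7 lies at chr5:122643677-122643926, P2rx4 at chr5:122707294-122707543 and P2rx6 at chr16:17561635-17561884, all on the plus strand, and capitals mark CG dinucleotides, the sites of DNA methylation.
P2rx7: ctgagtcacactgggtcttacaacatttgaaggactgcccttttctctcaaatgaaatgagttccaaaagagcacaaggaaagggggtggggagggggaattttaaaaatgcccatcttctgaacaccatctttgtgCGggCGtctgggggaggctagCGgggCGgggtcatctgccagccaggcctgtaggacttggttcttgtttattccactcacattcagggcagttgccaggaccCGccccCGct
P2rx4: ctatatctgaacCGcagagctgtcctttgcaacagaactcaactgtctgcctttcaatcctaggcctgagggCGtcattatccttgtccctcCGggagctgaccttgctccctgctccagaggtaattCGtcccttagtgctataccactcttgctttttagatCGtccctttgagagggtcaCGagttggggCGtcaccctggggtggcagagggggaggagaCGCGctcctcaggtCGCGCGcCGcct
P2rx6: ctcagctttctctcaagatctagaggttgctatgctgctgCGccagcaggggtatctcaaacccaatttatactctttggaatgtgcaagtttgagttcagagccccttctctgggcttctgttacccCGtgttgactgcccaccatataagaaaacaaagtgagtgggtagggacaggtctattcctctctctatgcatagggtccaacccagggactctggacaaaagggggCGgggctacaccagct
The P2rx4 window held 13 CG dinucleotides, the first P2rx7 window 6 and the P2rx6 window 3. Over 32851 such windows of all genes the median was 6, over those of genes at 1 CPM or more in every library it was 16, and over those of genes never above 3 counts it was 3. A further P2rx7 start in the table, not shown, had 4 CG dinucleotides and 0 GC boxes in its window. P2rx1, whose window is not shown, had 6, as did the first P2rx7 window, although their levels differed in every library. The GC box GGGCGG, searched on both strands, occurred at 2 positions in the first P2rx7 window, 1 in the P2rx6 window and 0 in the P2rx4 window, and 32.7% of all windows held at least 1. These are descriptions of letters, not of binding.

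P2rx7 reached 101.1 CPM in replicate 1, 136.6 in replicate 2, 149.6 in replicate 3, 136.7 in replicate 4, 96.6 in replicate 5 and 158.9 in replicate 6. Replicates 1 and 5 were low and the other 4 lay higher, with a mean of 129.9 ± 25.5 CPM (SD, n = 6) and a CV of 19.6%, above that of 88.1% of 1855 genes of like level. Replicates 1 and 5 were also the libraries with the smallest summed satellite glia markers (1901 and 1657 CPM, against 2426 to 2655 CPM in the others). P2rx7 was 5.32%, 5.63%, 5.63%, 5.53%, 5.83% and 6.16% of that sum in replicates 1 to 6, a ratio with a CV of 5.02%. This was the steadiest of the 4 ratios of P2rx7 computed: the CV was 17.3% against the glial lineage sum, 27.7% against the myelin sum and 78.5% against the macrophage sum. The 4 sums varied unequally themselves, with CVs of 17.8% for satellite glia, 13.0% for the glial lineage, 27.9% for myelin and 73.5% for macrophages. A gene with a CV of 19.6% cannot keep a steady ratio to a sum as variable as the macrophage one. The order of these ratios was not tested. Most of the satellite glia sum came from Aatk and Apoe, with means of 1023 and 851 CPM out of 2282. Apoe, Kcnj10 and Aatk were lowest in replicates 1 and 5. Fabp7 was instead highest in replicate 5 (53.8 CPM), and Glul in replicate 1 (84.2 CPM) was near its highest value (85.2 CPM).

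The satellite glia list was set against P2rx7 after the values were seen, as part of 40 added relations between P2rx3, P2rx4, P2rx5 and P2rx7 and 10 marker lists, of which 6 had an unadjusted p under 0.05 and 0 passed the correction. The 40 include some of the first 12 relations again. P2rx3 with the pan-neuronal list and P2rx4 with the glial lineage list are among the 6 and are counted in both sets. P2rx7 and the satellite glia list had r = 0.95 (exact permutation p = 0.00833, adjusted 0.25 over the 40) and rho = 0.89 (exact permutation p = 0.0333, adjusted 0.444), and r = 0.69 without replicates 1 and 5. With the myelin list, r was 0.87 (exact permutation p = 0.0125, adjusted 0.25) and rho 0.83 (exact permutation p = 0.0583, adjusted 0.583), and r fell to 0.43 without replicates 1 and 5. With the glial lineage list, a relation of the first 12, r was 0.61 and rho 0.60 (exact permutation p = 0.188 and 0.242, adjusted 0.386 and 0.40), and r was 0.016 without replicates 2 and 5. Of the 5 satellite glia genes (Fabp7, Kcnj10, Apoe, Glul and Aatk), Apoe and Glul are known from other cell types as well. Whether the others, among them Aatk with the largest part of the sum, came only from satellite glia here was not tested.

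P2rx4 was the steadiest of the upper genes. It reached 51.6 CPM in replicate 1, 53.4 in replicate 2, 45.7 in replicate 3, 46.1 in replicate 4, 43.7 in replicate 5 and 56.1 in replicate 6, a mean of 49.4 ± 4.98 CPM (SD, n = 6). Replicates 1, 2 and 6 lay above replicates 3, 4 and 5, and the whole range was 1.28-fold. Its CV of 10.1% was higher than that of 61.3% of 2944 genes of like level, whose median CV was 8.56%. P2rx4 and the glial lineage list had r = 0.82 and rho = 0.89 (exact permutation p = 0.0278 and 0.0333, adjusted 0.128 and 0.133), and r = 0.77 without replicates 2 and 5. Among the 40 added relations, P2rx4 had r = -0.90 and rho = -0.77 with the non-peptidergic nociceptor list (exact permutation p = 0.0472 and 0.103, adjusted 0.315 and 0.605), and r = -0.88 without replicates 2 and 3. P2rx4 against P2rx7 gave r = 0.40 and rho = 0.60 (exact permutation p = 0.382 and 0.242, adjusted 0.509 and 0.40), and r = 0.53 without replicates 1 and 5.

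Both P2X4 and P2X7 are known from macrophages, whose summed markers had a CV of 73.5% over the cultures. The 12 macrophage genes summed to 22.0 CPM in replicate 1, 42.6 in replicate 2 and 56.4 in replicate 6, and to 159, 184 and 220.3 CPM in replicates 3, 4 and 5. Because the libraries lie apart in 2 sets of 3 on this measure, no correlation coefficient with it is given. P2rx4 was 51.6, 53.4 and 56.1 CPM in the libraries with low macrophage sums and 45.7, 46.1 and 43.7 CPM in those with high sums, so it was not higher where these markers were higher. P2rx7 was 101.1 to 158.9 CPM in the former and 96.6 to 149.6 CPM in the latter, ranges that overlap from 101.1 to 149.6 CPM. Csf1r, the macrophage growth factor receptor, ranged from 3.35 to 39.6 CPM over the same libraries.

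**Figure D2:**
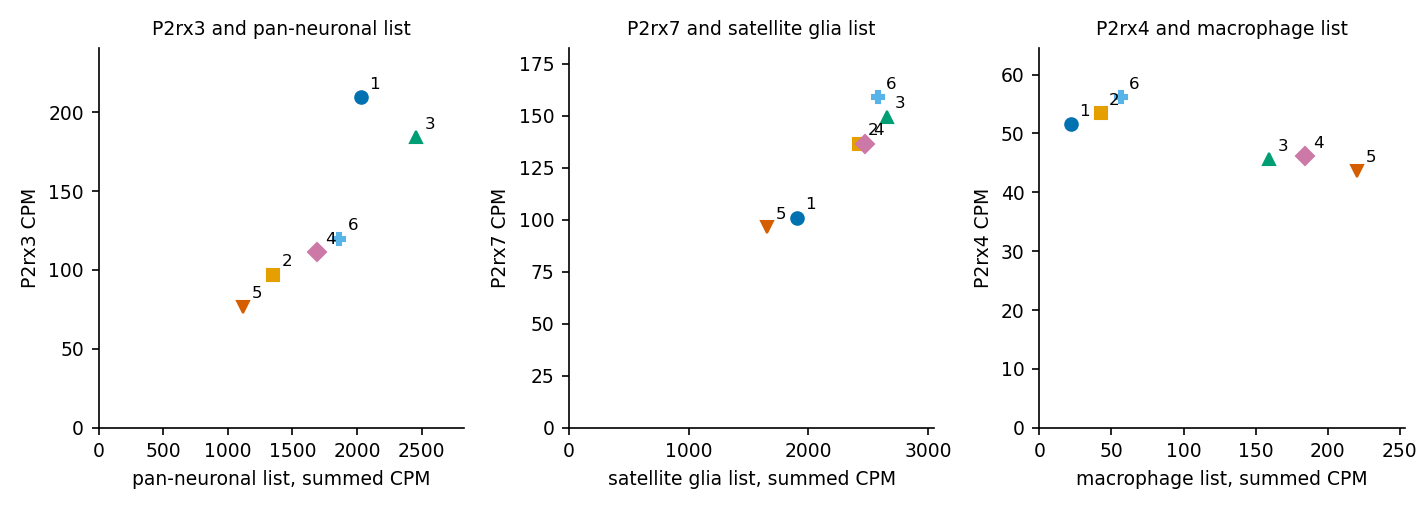
CPM of P2rx3 against the summed CPM of the pan-neuronal list, of P2rx7 against the satellite glia list and of P2rx4 against the macrophage list, 1 point per culture, numbered by replicate, with axes from 0. P2rx3 is highest in replicate 1 relative to the neuronal sum, P2rx7 is 5.32% to 6.16% of the satellite glia sum in every library, and P2rx4 stays between 43.7 and 56.1 CPM while the macrophage sum runs from 22.0 to 220.3 CPM.

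The remaining subunits were scarce. P2rx5 (gene 94045, chromosome 11, 73155389 to 73172687, plus strand) had 42, 51, 49, 34, 69 and 51 counts in replicates 1 to 6, or 2.31 ± 0.566 CPM (SD, n = 6). Replicate 5 was highest, at 3.30 CPM (exact Poisson 95% interval 2.57 to 4.17), and replicate 4 lowest, at 1.69 CPM (1.17 to 2.37), and these intervals do not overlap. They make no allowance for picking the extremes of 6 libraries. The CV of P2rx5, 24.5%, was close to the median of 24.3% among 1383 genes of like level.

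P2rx6 (gene 18440, chromosome 16, 17561867 to 17572015, plus strand), a subunit that forms channels poorly on its own, had 14, 21, 23, 10, 16 and 19 counts, or 0.80 ± 0.216 CPM. Its intervals in the highest library (0.673 to 1.59 CPM) and the lowest (0.239 to 0.916 CPM) overlap. With the pan-neuronal list, P2rx6 had r = 0.12 and rho = 0.26 (exact permutation p = 0.811 and 0.658, adjusted 0.885 and 0.718) and r = -0.39 without replicates 3 and 5, and P2rx5 had r = -0.58 and rho = -0.49 (exact permutation p = 0.225 and 0.356, adjusted 0.386 and 0.474) and r = -0.29 without the same libraries.

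P2rx1 (gene 18436, chromosome 11, 72999056 to 73015200, plus strand) had 4, 0, 12, 7, 21 and 15 counts in replicates 1 to 6, or 0.466 ± 0.368 CPM. Replicate 5 was highest, at 1.00 CPM (exact Poisson 95% interval 0.621 to 1.53), and in replicate 2 the 0 allows up to 0.137 CPM. The mural and smooth muscle list, whose Acta2 (smooth muscle actin) ranged from 38.4 to 837 CPM, was also highest in replicate 5 and lowest in replicate 1. P2rx1 and that list had r = 0.84 (exact permutation p = 0.0319, adjusted 0.128) and rho = 0.94 (exact permutation p = 0.0167, adjusted 0.10), and r = 0.97 without replicates 1 and 2. This relation rests on 59 counts in all and did not pass the correction. Fibroblast, endothelial and macrophage sums were likewise highest in replicate 5 and lowest in replicate 1. Of 4 platelet and megakaryocyte genes, Gp1ba and Gp9 never had more than 3 counts, while Gp1bb (14.1 ± 1.54 CPM) and Itga2b (3.23 ± 0.414 CPM) passed 1 CPM in every library. P2rx2 was also among the 12 relations, against the neuronal list (r = -0.57, rho = -0.54, exact permutation p = 0.267 each, adjusted 0.40; r = -0.11 without replicates 3 and 5) and against P2rx3 (r = -0.62, rho = -0.54, exact permutation p = 0.20 and 0.267, adjusted 0.386 and 0.40), values that carry no information at 2 counts. No relation of the 12 passed an adjusted p of 0.05, and 3 had an unadjusted p below it.

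To order the subunits, log2(CPM per kb + 0.1) was compared within each library for all 21 pairs of genes. The test was an exact permutation of the signs of the 6 differences, two-sided, whose smallest possible p is 0.0312. Per kb of the deposited exon length, P2rx7 averaged 20.2 ± 3.96, P2rx3 18.6 ± 7.28, P2rx4 18.1 ± 1.82, P2rx5 0.824 ± 0.202, P2rx6 0.338 ± 0.0913 and P2rx1 0.184 ± 0.145 CPM per kb (SD, n = 6). In 16 of the 21 pairs the same gene was higher in every library (exact sign-flip permutation p = 0.0312 each, adjusted 0.041 over the 21 pairs). Each of the upper 3 exceeded each of the lower 4, with P2rx4 above P2rx5 by 4.32 ± 0.361 on the log2 scale, and P2rx5 exceeded P2rx6 by 1.08 ± 0.298 and P2rx1 by 1.86 ± 0.727.

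The upper 3 did not separate from each other on this scale. P2rx3 minus P2rx7 was -0.18 ± 0.595 (exact sign-flip permutation p = 0.469, adjusted 0.492), P2rx3 minus P2rx4 -0.04 ± 0.542 (p = 0.844 by the same exact test, adjusted 0.844) and P2rx4 minus P2rx7 -0.13 ± 0.276 (p = 0.281 by the same exact test, adjusted 0.311), each with 2 libraries one way and 4 the other. P2rx1 was lower than P2rx6 by this measure in all but replicate 5 (-0.78 ± 0.880, exact sign-flip p = 0.0625, adjusted 0.0729). P2rx1 exceeded P2rx2 in 5 of 6 libraries and both had 0 counts in the other.

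This order depends on the length used for P2rx3. The deposited combined exon length of P2rx3 is 7146 bases, whereas its longest protein-coding transcript in GENCODE M21, on the same assembly, has 1812 bases, a ratio of 3.94; the ratio is 1.31 for P2rx7 (6449 against 4936 bases) and 1.01 for P2rx4. The combined length of all GENCODE exons is the like measure. It is 2789 bases for P2rx3, 5970 for P2rx7 and 7025 for P2rx4, whose deposited length is 2729 bases. For P2rx4 the annotations therefore also differ, in the opposite direction, and levels per kb of this length were not computed. At the 3′ end the deposited P2rx3 gene reaches to 84996549 and the GENCODE gene to 84998583. Per kb of the longest GENCODE coding transcript, P2rx3 averaged 73.5 ± 28.7, P2rx7 26.3 ± 5.17 and P2rx4 18.3 ± 1.84 CPM per kb, and P2rx3 exceeded P2rx7 by 1.41 on the log2 scale and P2rx4 by 1.92, in each library (by the same exact test, adjusted p = 0.0345 for both). P2rx4 was then below P2rx7 (-0.50, exact sign-flip permutation, adjusted p = 0.0345), as it was without division by length (-1.37, adjusted p = 0.0365 by the same exact test). With the longest coding sequence the order was the same. The counts were the same under every length. Any P2rx3 reads on deposited exon bases outside a GENCODE length therefore stay in the count and raise its level per kb of that length. How many such reads there were, and which of these lengths is transcribed in the cultures, was not tested.

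**Figure D3:**
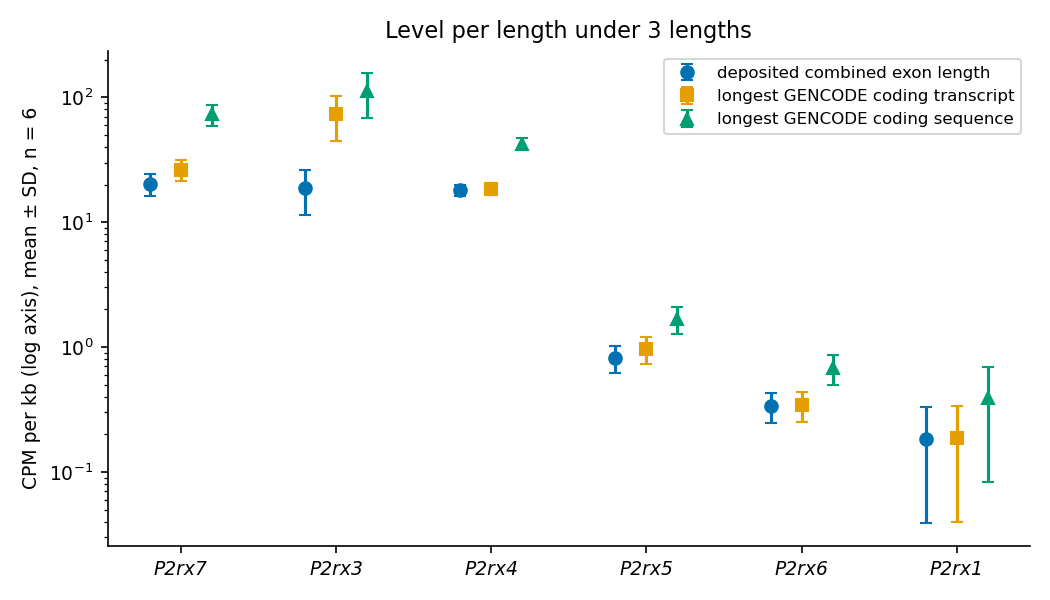
Mean CPM per kb ± SD over 6 cultures (log axis) for 6 P2X genes under 3 lengths: the deposited combined exon length, the longest GENCODE coding transcript and the longest GENCODE coding sequence. P2rx7, P2rx3 and P2rx4 are level with the deposited length (20.2, 18.6 and 18.1), P2rx3 is highest with the other lengths (73.5 and 111.8), and P2rx5, P2rx6 and P2rx1 stay below under each. The counts are those of the deposited genes under each length.

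Expressed as shares of the summed CPM per kb of the 7 genes, P2rx7 held 34.8% ± 5.59, P2rx4 31.5% ± 4.26 and P2rx3 31.3% ± 8.55 (SD, n = 6). P2rx3 ranged from 24.4% in replicate 2 to 45.2% in replicate 1, where P2rx7 had its lowest share, 24.2%. P2rx5, P2rx6 and P2rx1 held 1.48%, 0.587% and 0.339% on average. With the longest GENCODE coding transcripts, P2rx3 held 59.8% (52.3% to 74.0% over the libraries), P2rx7 22.9% on average and P2rx4 11.2% to 20.2%. These shares also keep any reads on deposited exon bases outside those transcripts.

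Variation between cultures beyond counting noise was tested over the whole table by chi-square, setting each gene's counts against its total divided in proportion to the scaled library sizes, for the 14998 genes that passed the low-count filter. Of the 5 P2X genes among them, 4 varied beyond counting noise, beside 76.3% of all genes tested. The Benjamini-Hochberg adjusted chi-square p was 2.85e-113 for P2rx7, 8.3e-13 for P2rx4 and 0.0194 for P2rx5, was returned as 0 for P2rx3, and was 0.328 for P2rx6. Leaving out replicate 5 gave 0.398 for P2rx5 and leaving out replicate 4 gave 0.0544, so its call rests on those libraries. P2rx1 and P2rx2 did not pass the filter; without the filter, P2rx1 had an adjusted chi-square p of 3.48e-05, where 50.2% of genes were called. Against genes of similar abundance, edgeR's quasi-dispersion test called 0 members and 0.0% of all genes, with 809 genes at an unadjusted p under 0.05, among them P2rx3 (unadjusted p = 0.0224, adjusted 0.901). The relative spread that edgeR estimated between cultures was 0.322 for P2rx3 against a trend of 0.153 at its level, 0.187 against 0.153 for P2rx7 and 0.131 against 0.167 for P2rx4.

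**Figure D4:**
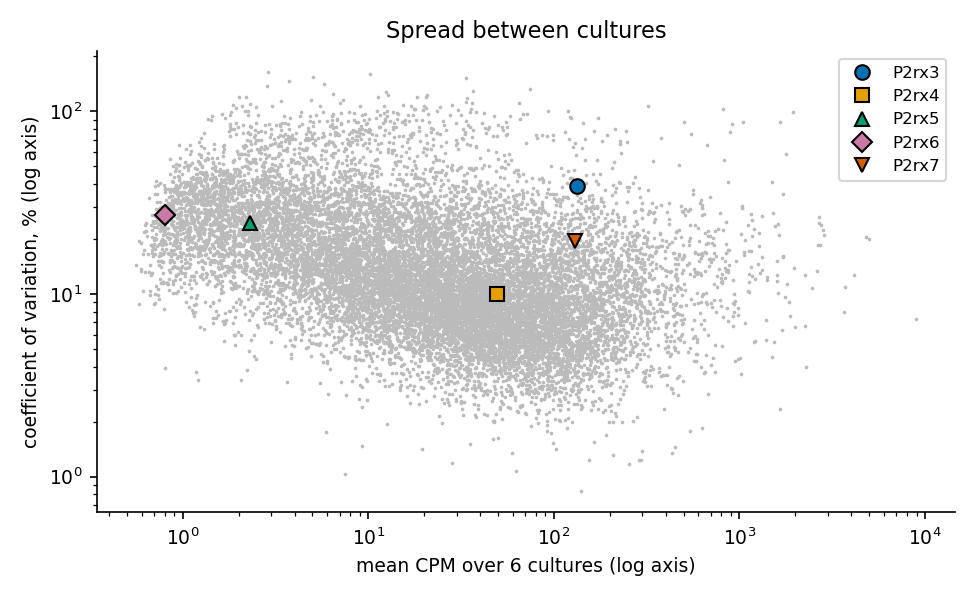
Coefficient of variation over 6 cultures against mean CPM (both log axes) for the genes that passed the low-count filter (grey) and the 5 P2X genes among them. P2rx3 (CV 39.1%) and P2rx7 (19.6%) lie above most genes of their level, and P2rx4 (10.1%), P2rx5 (24.5%) and P2rx6 (27.0%) lie within the cloud.

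Neighbouring and overlapping genes were examined because the strand setting of the counting was not given in the sources used here. The P2rx4 gene overlaps Camkk2, a calcium-dependent kinase on the opposite strand, by 11360 bases, but their GENCODE exons share 0 bases. Camkk2 averaged 55.2 ± 7.15 CPM. P2rx3 starts 11 bases from Ssrp1 on the opposite strand (138 ± 16.1 CPM), and their GENCODE exons share 51 bases, 1.83% of the P2rx3 exon bases. Ssrp1 was highest in replicate 5, where P2rx3 was lowest. P2rx6 ends 2 bases before Slc7a4 on the opposite strand (1.77 to 3.39 CPM over the libraries), and 554 bases, 13.9% of its GENCODE exon bases, are shared with it, whereas the deposited P2rx6 and Slc7a4 genes do not overlap. P2rx1 lies 842 bases before Camkk1 (5.12 ± 1.78 CPM) on the same strand. Fractional counts, whose origin is not given in the sources used here, occurred in 3 libraries for P2rx7 and 1 for P2rx4 and in none for the other 5 genes.

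The genes around P2X signalling were described from lists of ATP release, ATP breakdown and P2X7-linked inflammasome genes. Of 8 genes linked to ATP release, 5 reached 1 CPM in every library, led by Lrrc8a (volume-regulated anion channel, 90.1 ± 4.70 CPM), Gja1 (connexin 43, 64.7 ± 28.6 CPM) and Panx1 (pannexin 1, 50.7 ± 2.48 CPM). Slc17a9, the vesicular nucleotide transporter, averaged 0.455 ± 0.206 CPM. Of 11 ATP breakdown genes in the table, 7 reached 1 CPM in every library. Entpd2, which hydrolyses ATP to ADP, averaged 693 ± 236 CPM, with its lowest value (407 CPM) in replicate 5 and its highest (996 CPM) in replicate 2, and Entpd1 (CD39) was at 290.2 ± 22.1 CPM. Nt5e (CD73), which makes adenosine from AMP, was at 10.1 ± 1.36 CPM.

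Of 8 genes linked to P2X7 in inflammasome activation, 4 reached 1 CPM in every library. Nek7, the kinase that binds NLRP3, was at 208.0 ± 32.5 CPM and Casp4, an inflammatory caspase, at 19.1 ± 3.95 CPM. Nlrp3, the sensor, averaged 0.598 ± 0.515 CPM, Il1b 0.125 ± 0.222 CPM with its highest value of 0.573 CPM in replicate 5, and Pycard, the adaptor, 1.59 ± 0.611 CPM. Among 5 genes linked to P2X4 in microglia, Bdnf was at 26.4 ± 9.15 CPM and Mapk14 at 108.7 ± 4.55 CPM, and Irf5, Irf8 and Slc12a5 were each under 1 CPM in at least 1 library. The chi-square test called 5 of 5 tested ATP release genes, 8 of 9 ATP breakdown genes, 6 of 6 inflammasome genes and 3 of 3 P2X4-linked genes, beside 76.3% of all genes.

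**Figure D5:**
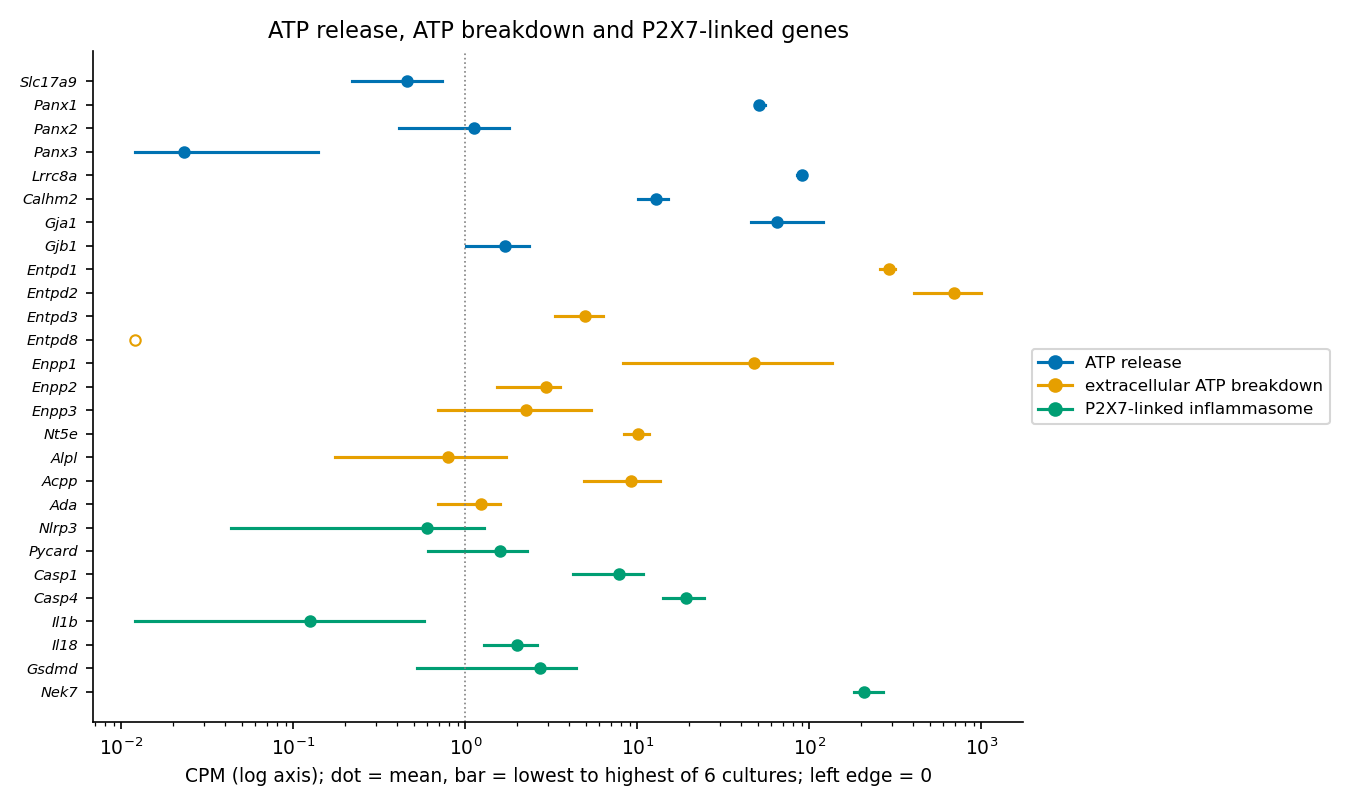
CPM (log axis) of the ATP release, ATP breakdown and P2X7-linked inflammasome genes: dots are means and bars run from the lowest to the highest of 6 cultures; values of 0 are drawn at the left edge and the dotted line is 1 CPM. Entpd2 and Entpd1 are highest (693 and 290.2 CPM), and Slc17a9, Nlrp3 and Il1b have means under 1 CPM.

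Genes whose pattern over the 6 libraries was most like that of a P2X gene were listed by Pearson's r of log2(TMM-scaled CPM + 0.5), among 11930 genes with a mean of at least 5 CPM. These values are descriptions and were not tested. For P2rx3 the 5 nearest were Syt4 (a synaptotagmin, r = 0.998), Ppp3ca (calcineurin catalytic subunit, 0.993), Osbp2 (0.992), Sv2c (synaptic vesicle glycoprotein, 0.992) and Mfap1a (0.992). Syt4 was lowest in replicate 5 (184 CPM) and highest in replicate 1 (378 CPM), as P2rx3 was. For P2rx7 they were Get1 (0.998), Gdf1 and Cers1 (0.995 each, with identical values in the table), Vamp5 (0.989) and Cdkn3 (0.988). For P2rx4 they were Mfsd14b (0.995), Acvrl1 (0.992), Asb6 (0.983), Anxa11 (0.981) and Tmem40 (0.981), and for P2rx5 Zmym1 (0.982), Mad2l1bp (0.981), Gm46391 (0.975), B4galt3 (0.973) and Foxk2 (0.969). An r of at least 0.95 was reached by 89 genes with P2rx3, 61 with P2rx7, 39 with P2rx4 and 12 with P2rx5, and a negative r of at least that size by 82, 51, 27 and 17 genes, respectively.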

How the data were processed

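RNA sequencing of poly-A libraries was available for 6 cultures of 1 group. The deposited table holds unscaled estimated counts per gene, a combined exon length and coordinates; 13.4% to 14.7% of values per library are fractions. Per the submitters' processing notes, bcl2fastq 2.20.0.422, cutadapt 2.5, STAR 2.7.2b and featureCounts 1.6.4 (Subread) and the build GRCm38.p6 were used; their options, including strand, are not given in the sources used here. Per the labels' protocols, libraries were stranded. Totals of 20070639 to 22968642 counts limit precision at low levels.

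CPM used the library totals. Under R 4.3.3, rounded counts entered DESeq2 1.42.0 and edgeR 4.0.16, whose filterByExpr chose the genes tested and whose TMM (trimmed mean of M-values) scaled the libraries. The chi-square test was tested on simulated data. Sign-flip and correlation tests enumerated all 64 sign patterns or 720 pairings (Python 3.11.15, scipy 1.17.1), with Benjamini-Hochberg adjustment. List scores were means of log2(TMM-scaled CPM + 0.5). GENCODE M21 gave transcript lengths and RefSeq the promoter windows. Proteins were not analysed here. Some marker results are not reported here.

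The members and lists were chosen with earlier results of these data known. Named were the 7 genes, list genes set beside them, their neighbours, and the 5 most similar genes for each member with a mean of at least 1 CPM. Alternatives covered length, pseudocount, scaling, filter, list summary and left-out libraries.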

Additional observations from a re-analysis of the deposited data

Results flagged for a closer look

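The level of P2rx3 relative to the summed pan-neuronal markers stood at 10.3% in replicate 1, whereas the remaining 5 cultures gave 6.43% to 7.48%. The gap between replicate 1 and its nearest library, divided by the range of all 6, was 0.728, above Dixon's 95% critical value for 6 values. It was the only 1 of 8 such measures of P2X genes above that value, and chance flags about 1 in 20, or 0.4 of 8. The CPM of P2rx3 by itself did not pass, with a ratio of 0.191. No cause was tested.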

How the results depend on the processing

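Of the alternatives for the main results (pairs in the same order, genes detected, genes varying, relations passed and mean CPM), 90 stayed on the same side of any threshold and, for counts, within 1.5-fold, or, for levels, within 1 SD, and 1 moved: edgeR's quasi-dispersion test called 0 varying members against 4. Within those bounds, varying members numbered 3 without replicate 4 or 5 and 5 without the filter, and 5 members were detected in every library by at least 10 or more than 3 counts. Part of the 90 could not have moved, whatever the data. Leaving out a single library always shifts the mean CPM of a gene by less than 1 SD. It also cannot undo a pair order or a detection that holds in every library. For mean CPM, pair order and detection, the left-out libraries therefore do not test stability. Adding the same pseudocount to both genes of a pair cannot change which is higher. The pseudocounts of 0.01 and 1 therefore do not test the number of pairs in the same order. The number of pairs in the same order in every library was 16, and 16 to 19 under the alternatives. With single libraries left out it could only stay or rise. Because there are 21 pairs in all, no rise from 16 could pass the 1.5-fold bound. P2rx3 minus P2rx4 turned positive without division by length (1.34), per longest GENCODE coding transcript (1.92) and per longest coding sequence (1.31), and ran from -0.18 to 0.064 with single libraries left out. P2rx3 minus P2rx7 turned positive with both GENCODE lengths (1.41 and 0.55). Both were applied to the counts of the deposited P2rx3 gene, whose exon length is greater. P2rx4 minus P2rx7 passed the test without division by length (-1.37) and with both GENCODE lengths (-0.50 and -0.76). The GENCODE lengths, the summed-list score and the 40 relations were added after seeing the data. The r of P2rx3 with the non-peptidergic list turned positive with a pseudocount of 5 (0.021) and with summed CPM (0.70). The planned length from RefSeq proteins was not run. No paired analysis was possible because the series has 1 group. Depth limits statements on P2rx1, P2rx2 and P2rx6.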
